A study of Mus musculus with 18 samples.

Results

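Intronic distal regions are stretches of accessible chromatin whose summit lies inside a protein-coding gene, away from annotated starts and outside coding gene exons. They were taken from a catalog of accessible regions in mouse bone marrow-derived macrophages (BMDMs), primary macrophages differentiated in culture from bone marrow precursors. Each extended region (an ATAC-seq peak after widening, joined with its neighbours where they met) on chromosomes 1 to 19 was represented by its summit with the highest deposited score. A region was a member when this summit lay over 1000 bp from every annotated transcript start, inside a protein-coding gene and in no exon of such a gene. The rule concerns the summit alone: at least 580 members had a reference peak that reached over an exon edge, and 178 summits lay in an exon of a noncoding gene. The first count took only exon edges closer to the summit than the nearer end of the peak. The rule was met by 22649 of the 58386 regions on these chromosomes, which is 38.8% (95% Wilson interval 38.4 to 39.2, counting error only). The complete list held 59617 extended regions. The other regions comprised 19294 intergenic distal regions, 14537 promoter regions within 1000 bp of a start and 1906 distal regions in coding gene exons.

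The catalog was made from 18 ATAC-seq libraries of wild type BMDMs of male C57/BL6 mice, with 2 libraries in each of 9 groups. In ATAC-seq, a transposase (Tn5) cuts and tags DNA that is not covered by nucleosomes. All cells had received the vehicle DMSO for 1 h, and were then left untreated or given lipopolysaccharide (LPS) or IL-4 at 10 ng/mL for 30 min, 1 h, 2 h or 4 h. The deposited lists are pooled over all libraries, so a region could not be assigned to a stimulus, and neither replicate error nor depth could be derived.

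Introns hold many of the enhancers of a mammalian genome, short stretches of DNA at which transcription factors bind and act on promoters at a distance. In macrophages, PU.1 keeps such elements accessible together with AP-1, RUNX, C/EBP and IRF family factors. NF-kB and STAT6 are activated by LPS and by IL-4, respectively. CTCF binds a long motif of its own and is best known for anchoring chromatin loops. An intronic element need not act on the gene that contains it, and "host" below means only the containing gene (the shortest if there were several). Peaks at gene starts were also counted in lists of marker genes. The lists were chosen with earlier results of these data known, so the counts are no independent check of the cell type. A reference peak at most 1000 bp from a start was present at 22 of 22 macrophage identity genes and 20 of 20 myeloid transcription factor genes. The corresponding counts were 2 of 10 T cell markers, 5 of 10 B cell markers, 3 of 8 granulocyte precursor markers, 3 of 8 stromal markers, 15 of 15 genes used by all cells and 2 of 22 genes of other tissues. Over all coding genes the share was 57.8%, so the B cell count was near it.

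The following windows show the sequence at the best scored intronic summit that carried each of 9 motifs in a host from the LPS, IL-4, macrophage or myeloid factor lists (any host for CTCF). The last line is the best scored Mrc1 region with a STAT6 motif, chosen after its values were seen. Each window spans 201 bases of mm10, plus strand, centred on the summit, with the motif in capitals (sequence from RefSeq GRCm38.p6).
Inpp5d (PU.1/ETS, chr1:87626480-87626680): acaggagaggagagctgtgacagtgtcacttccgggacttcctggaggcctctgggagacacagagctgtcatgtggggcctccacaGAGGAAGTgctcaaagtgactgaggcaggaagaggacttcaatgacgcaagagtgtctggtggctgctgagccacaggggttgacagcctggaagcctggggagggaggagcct
Zeb2 (AP-1, chr2:45049379-45049579): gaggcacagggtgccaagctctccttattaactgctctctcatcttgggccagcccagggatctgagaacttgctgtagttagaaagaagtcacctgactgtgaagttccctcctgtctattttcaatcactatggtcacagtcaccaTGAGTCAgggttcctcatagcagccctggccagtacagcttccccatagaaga
Lyn (NF-kB, chr4:3685273-3685473): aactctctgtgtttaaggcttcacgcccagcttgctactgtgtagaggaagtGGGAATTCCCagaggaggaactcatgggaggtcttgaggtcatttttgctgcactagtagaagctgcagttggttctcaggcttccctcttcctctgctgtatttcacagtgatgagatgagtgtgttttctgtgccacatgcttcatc
Cx3cr1 (RUNX, chr9:120054904-120055104): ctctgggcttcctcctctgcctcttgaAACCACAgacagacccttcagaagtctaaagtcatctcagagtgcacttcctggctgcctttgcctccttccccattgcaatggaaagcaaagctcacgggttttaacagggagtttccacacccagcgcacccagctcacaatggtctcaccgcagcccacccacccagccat
Abca1 (C/EBP, chr4:53120467-53120667): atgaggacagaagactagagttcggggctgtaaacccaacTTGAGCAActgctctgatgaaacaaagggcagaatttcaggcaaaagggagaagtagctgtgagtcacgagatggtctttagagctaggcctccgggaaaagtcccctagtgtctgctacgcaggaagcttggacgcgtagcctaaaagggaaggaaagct
Lyn (PU.1-IRF composite, chr4:3768757-3768957): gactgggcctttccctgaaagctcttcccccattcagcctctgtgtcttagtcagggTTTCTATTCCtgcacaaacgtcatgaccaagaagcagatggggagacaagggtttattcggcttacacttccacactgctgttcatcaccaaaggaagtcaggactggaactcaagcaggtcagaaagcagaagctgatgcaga
Nfe2l2 (STAT6, chr2:75685519-75685719): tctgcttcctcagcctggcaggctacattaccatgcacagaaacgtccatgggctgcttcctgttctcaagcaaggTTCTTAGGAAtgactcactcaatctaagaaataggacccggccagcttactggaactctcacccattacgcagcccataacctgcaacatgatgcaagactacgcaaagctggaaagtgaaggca
Elmo1 (MEF2, chr13:20306544-20306744): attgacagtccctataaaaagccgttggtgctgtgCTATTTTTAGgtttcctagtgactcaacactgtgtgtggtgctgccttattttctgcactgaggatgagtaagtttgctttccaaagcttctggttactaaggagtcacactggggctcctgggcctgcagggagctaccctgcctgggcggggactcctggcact
Map3k14 (CTCF, chr11:103246440-103246640): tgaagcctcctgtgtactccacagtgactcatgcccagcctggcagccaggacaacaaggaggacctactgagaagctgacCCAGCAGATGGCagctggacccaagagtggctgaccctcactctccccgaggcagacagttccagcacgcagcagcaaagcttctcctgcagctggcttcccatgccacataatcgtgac
Mrc1 (STAT6, chr2:14244736-14244936): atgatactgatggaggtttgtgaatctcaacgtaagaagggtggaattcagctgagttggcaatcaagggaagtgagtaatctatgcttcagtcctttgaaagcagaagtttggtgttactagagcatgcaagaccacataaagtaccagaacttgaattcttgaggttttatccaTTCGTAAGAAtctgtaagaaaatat

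The Inpp5d window lay in the first intron of the gene for a phosphatase that restrains phosphoinositide signalling, 6268 bp from the transcript start. Its PU.1/ETS site, GAGGAAGT, was centred 10 bp from the summit, which scored 2021. The AP-1 site in Zeb2, a zinc finger repressor of myeloid and other lineages, was 51 bp from a summit that scored 2310. Lyn, a Src family kinase, supplied both the NF-kB window, in intron 1, and the PU.1-IRF composite window, in intron 10. The Lyn NF-kB site matched the consensus on both strands and was directly preceded by a GAGGAAGT site. The STAT6 window lay in the first intron of Nfe2l2, which encodes the oxidative stress factor NRF2, and its STAT6 site is directly followed by a TGACTCA site. The CTCF window, in Map3k14, the kinase of the non-canonical NF-kB pathway, had its site 14 bp from the summit. The score is the deposited value of the summit in the merged peak call. Its scale is not stated, and it serves here only to rank summits against each other.

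Macrophage motifs were concentrated at the intronic summits. The AP-1 motif (TGAGTCA or TGACTCA) lay within 100 bp of 4641 summits, or 20.5% (95% Wilson interval 19.97 to 21.02). The C/EBP motif TTGCNNAA was present at 12.7%, the PU.1/ETS motif GAGGAAGT at 11.7% and the RUNX motif TGTGGTT at 9.55%. STAT6 reached 7.86%, the PU.1-IRF composite 5.62%, NF-kB 5.48% and CTCF 3.44%. Of 22649 members, 13912 (61.4%) carried at least 1 of 10 such motifs (these 8, IRF and MEF2). Both strands were searched, and the MAF/BACH element contains the AP-1 motif. Each summit was then paired with a window of the same size 1000 bp downstream in genome order. For 20197 members this flank lay inside a coding gene and outside peaks and exons. PU.1/ETS was found in 1.06% of the flanks, against 11.6% of the paired summits (10.98-fold). AP-1 was 6.47 times more frequent at the summit than in the flank, the MAF/BACH element 7.85 times, NF-kB 3.39 times and the PU.1-IRF composite 3.24 times. RUNX, C/EBP and STAT6 sites were more common in intron sequence as such (5.33%, 7.70% and 4.97% of flanks), and their ratios were 1.78, 1.66 and 1.60. CTCF had the highest ratio, with 3.28% of summits against 0.0594% of flanks. By an exact McNemar test, adjusted over 19 motifs with the Benjamini-Hochberg method, 16 were more frequent at the summit and 0 less frequent. The number was 15 with 200 bp to each side, over 2500 bp from every start, or with flanks taken upstream. The least clear of the 16 was the MITF/TFE E-box TCACGTGA, which 46 regions had at the summit alone and 27 in the flank alone (exact adjusted p = 0.0409). The nuclear receptor DR1 element was found at 15 members, REST at 7 and the liver motif HNF1 at 0 (95% Wilson interval 0 to 0.0170%), and these 3 did not pass the test (exact adjusted p = 0.760, 0.0699 and 1). Base composition was not matched between summits and flanks. On the sense strand of the host, summit windows held 23.5% C and 24.5% G, and flanks 21.7% and 22.6%. The effect of this on the motif shares was not tested. The p-values count regions of 1 catalog, not replicate cultures.

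**Figure D1:**
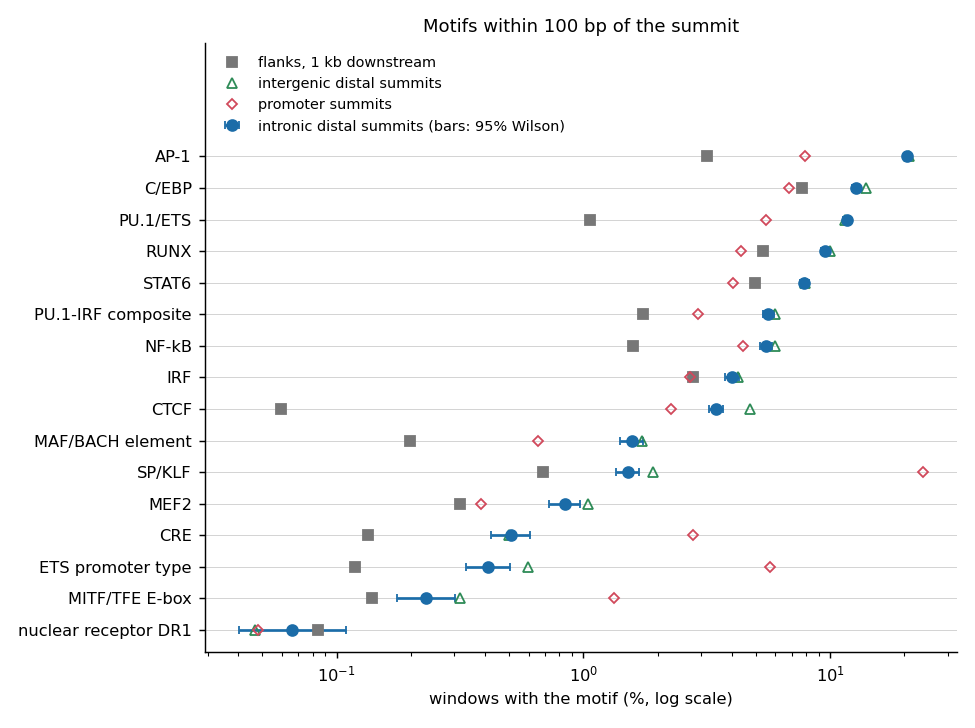
Share of windows with each motif shown within 100 bp of the summit (log scale), for intronic distal summits with 95% Wilson intervals, their flanks, intergenic distal summits and promoter summits. HNF1 and REST, with 0 flank matches, are left out. Intronic and intergenic distal summits lie close together, whereas SP/KLF is at 1.51% in introns and 23.8% at promoters.

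The motifs differed in how closely they followed the summit. Positions were measured for 7 motifs. Among these, CTCF sites were the most tightly placed, with a median distance of 20.5 bp between site centre and summit, and 83.2% of the sites found within 200 bp lay within 50 bp. PU.1/ETS and AP-1 followed with medians of 35.5 and 37 bp, and NF-kB with 50.5 bp. RUNX and C/EBP sites were spread more widely, with medians of 66 and 74.5 bp. The GC box GGGCGGGG of SP/KLF factors had the widest spread of the 7, with a median of 79.5 bp.

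**Figure D2:**
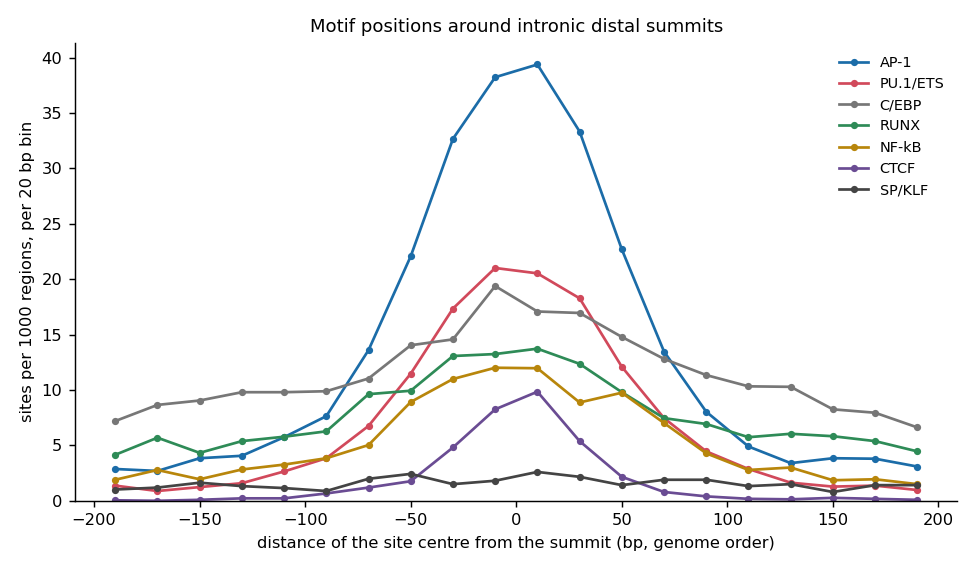
Number of motif sites per 1000 intronic distal regions in bins of 20 bp, by distance of the site centre from the summit. AP-1 reaches 39.4 sites per 1000 regions in the bin just after the summit and falls to 3.09 at the right edge, whereas C/EBP keeps a broad base.

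Motif content also moved with the score. This score is that of the best summit of a region, which the selection rule itself picked by score. The comparisons by motif, by quartile and by number of motifs were not repeated in regions of a single summit. Members with a PU.1/ETS motif had a median score of 845, against 706 for members without it, and the difference had the same sign on 19 of 19 autosomes. This comparison used an exact two-sided sign test over the autosomes, which are parts of 1 catalog and not replicates of the cells. The adjusted p over 16 motifs was 2.03e-05, and the smallest unadjusted p that the test allows is 3.81e-06. AP-1 gave 791 against 706 (19 of 19 autosomes, exact adjusted p = 2.03e-05), and the PU.1-IRF composite 823 against 716 (17 of 19, adjusted p = 0.00233). The 115 members with the cyclic AMP element TGACGTCA had the highest median, 968 (17 of 19 autosomes, exact adjusted p = 0.00233). CTCF went the other way, with a median of 573 and lower values on 19 of 19 autosomes (exact adjusted p = 2.03e-05). Across quartiles of the score, from lowest to highest, the PU.1/ETS share was 7.95%, 10.5%, 13.0% and 15.3%. The CTCF share was 4.36%, 5.16%, 3.002% and 1.25%. NF-kB had no such order: it was most frequent in the lowest quartile (7.10%), at 4.47% and 4.57% in the middle, and at 5.79% in the highest. AP-1 was likewise above the second quartile (16.3%) in the lowest (20.2%) and was highest at the top (26.1%).

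Several motifs shared windows less often than they occurred elsewhere. AP-1 was present at 12.5% of members with PU.1/ETS and at 21.6% of those without it (lower on 19 of 19 autosomes, exact sign test, adjusted p = 3.43e-05 over 45 pairs). Only 331 members held both. The PU.1-IRF composite was present at 3.66% of members with AP-1 and at 6.13% of the others (19 of 19, exact adjusted p = 3.43e-05). CTCF was present at 0.716% of members with PU.1/ETS against 3.81% without it, and at 0.883% with AP-1 against 4.10% without it. Of the 45 pairs, 21 were depleted and 1 was enriched. The enriched pair was the PU.1-IRF composite with IRF (6.91% against 3.84%), whose consensus sequences share bases, so that sites can overlap. Members with none of the 10 motifs had a median score of 685, those with a single motif 727, with 2 motifs 802 and with 3 motifs 856.

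Intronic distal regions were close to intergenic distal regions in nearly every property of the region itself. The median best score was 727 in introns and 716 between genes, the median width of the reference peak 221 and 220 bp, and the mean number of summits 1.30 and 1.32. None of these differed over the 19 autosomes (exact sign test, adjusted p = 0.815, 0.539 and 0.539). The share of summits on a repeat-masked base was 14.1% against 14.8% (exact adjusted p = 0.777). Base composition did differ: mean GC content was 48.0% against 48.4% (lower on 17 of 19 autosomes, exact adjusted p = 0.00219), and the observed over expected ratio of CpG was 0.203 against 0.228 (lower on 19 of 19, adjusted p = 2.29e-05). Promoter regions were unlike both, with a median score of 1272, a width of 305 bp, 61.2% GC and a median CpG ratio of 0.698, against 48.3% and 0.178 in introns.

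The macrophage motifs were shared as well. AP-1 was present at 20.5% of intronic and 20.9% of intergenic summits, and PU.1/ETS at 11.7% and 11.5% (adjusted p = 0.684 for both, exact sign test). CTCF was less frequent in introns, at 3.44% against 4.73%, with lower values on 18 of 19 autosomes (exact adjusted p = 0.00145). When a score of at least 737 (the median of all summits) was required, the difference was -0.834 points, against -1.29 points over all summits, and did not pass the test (exact adjusted p = 0.0841). C/EBP (12.7% against 14.0%) and NF-kB (5.48% against 5.99%) were lower on 15 of 19 autosomes each, short of the threshold (exact adjusted p = 0.0730). Against promoters, the intronic summits held more AP-1 (2.59-fold), RUNX (2.19-fold), MEF2 (2.18-fold) and PU.1/ETS (2.12-fold). They held less SP/KLF (1.51% against 23.8%), CRE (0.508% against 2.77%) and the promoter type ETS motif CCGGAAGT (0.411% against 5.68%). All these differences from promoters had the same sign on at least 18 of 19 autosomes.

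Within genes, the regions were denser near the start. Members were counted per megabase of eligible intron, that is, intron sequence over 1000 bp from any start and outside coding gene exons (830.7 Mb in all). The density was 27.3 members per Mb over all introns, and it ranged from 23.2 on chromosome 14 to 36.5 on chromosome 11. For intergenic sequence it was 14.3 per Mb. Intergenic sequence extends much farther from genes, however. At equal distance from the nearest coding gene start, densities were alike: 39.5 and 35.8 per Mb at 1 to 5 kb, 25.7 and 23.6 at 20 to 50 kb, and 15.6 in both at 50 to 100 kb. None of 7 distance bins differed between introns and intergenic sequence (lowest adjusted p = 0.445, exact sign test over the autosomes). By distance to the nearest coding gene exon, the density was 26.3 per Mb under 200 bp, 30.3 at 200 bp to 1 kb, 34.7 at 1 to 5 kb and 21.5 farther away.

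The first intron held 7055 of the 21045 members that lay inside the representative transcript of their host, or 33.5%, on 25.1% of the eligible bases. Pooled, this gave 36.9 ± 6.33 members per Mb in first introns and 24.6 ± 3.23 in later introns (SD over 19 autosomes), a ratio of 1.501, with first introns denser on 19 of 19 (exact sign test, p = 3.81e-06). The excess was present close to the start. At 1 to 5 kb from the transcript start, first introns had 44.8 and later introns 32.6 members per Mb (exact p = 0.00443), and at 10 to 20 kb 46.8 and 34.1 (exact p = 7.29e-04). At 20 to 50 kb the ratio was 1.12 (exact p = 0.0192). At 100 to 200 kb, first introns were sparser, with 14.8 against 22.1 per Mb (15 of 19 autosomes lower, exact p = 0.0192). Over 200 kb the pooled ratio was 1.20 although 16 of 19 autosomes were lower. Without the single gene model Gm20388 it was 0.438, with 17 of 19 lower (exact p = 7.29e-04). The comparison was repeated, after the results were seen, in hosts with an accessible start site. There the pooled ratio was 1.25 at 50 to 100 kb, 1.08 at 100 to 200 kb and 1.51 over 200 kb, with 13, 11 and 4 autosomes higher and 6, 8 and 9 lower (exact p = 0.167, 0.648 and 0.267). The last value rested on Gm20388: without it, the ratio over 200 kb in these hosts was 0.648, with 3 autosomes higher and 10 lower (exact p = 0.0923). Over all distances it was 1.58 in these hosts (19 of 19, exact p = 3.81e-06). The regions in first introns had a median score of 759 against 706 (higher on 17 of 19 autosomes, exact adjusted p = 0.00219) and contained more summits each (1.38 against 1.27, 18 of 19, adjusted p = 4.58e-04). The score is that of the best summit, and in regions of a single summit, examined after the results were seen, the medians were 664 and 644, which did not pass the test (exact sign test, adjusted p = 0.128).

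CTCF was the only 1 of the 19 motifs that differed between first and later introns, a comparison added after the results were seen. It was present at 1.70% of members in first introns and 4.19% in later introns, lower on 19 of 19 autosomes (exact sign test, adjusted p = 7.25e-05). Among summits at or above the median score this difference kept its direction at -1.52 points, against -2.49 points over all members, but did not pass the test (exact adjusted p = 0.0841). AP-1 was at 20.5% in both, PU.1/ETS at 11.8% and 11.7%, and RUNX at 9.17% and 9.64%. Motif shares by distance from the start are given without a test. From the bin at 1 to 5 kb to the bin over 200 kb, PU.1/ETS went from 11.1% to 13.9% and AP-1 from 19.6% to 21.5%, while SP/KLF went from 2.40% to 1.12%. CTCF was at 2.69% and 2.82% in these end bins and highest at 20 to 50 kb, with 3.75%.

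Most intronic distal regions lay in genes whose promoter was accessible. The hosts of 19720 members (87.1%) had a start site peak, meaning a reference peak no more than 1000 bp from any of their starts that did not itself hold a member's summit. Pooled, hosts with such a peak had 42.6 ± 4.13 members per Mb of eligible intron and hosts without it 7.97 ± 2.19 (SD over 19 autosomes). The ratio was 5.34, and the densities did not overlap: the lowest autosome was at 34.2 with a start site peak, and the highest at 12.5 without it (exact sign test, p = 3.81e-06). The ratio was between 3.26 and 7.16 in every one of 7 bins of distance from the transcript start, each with 19 of 19 autosomes in the same direction. At least 1 member was found in 5663 of 11130 genes with a start site peak (50.9%) and in 1447 of 7211 genes without it (20.1%).

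**Figure D3:**
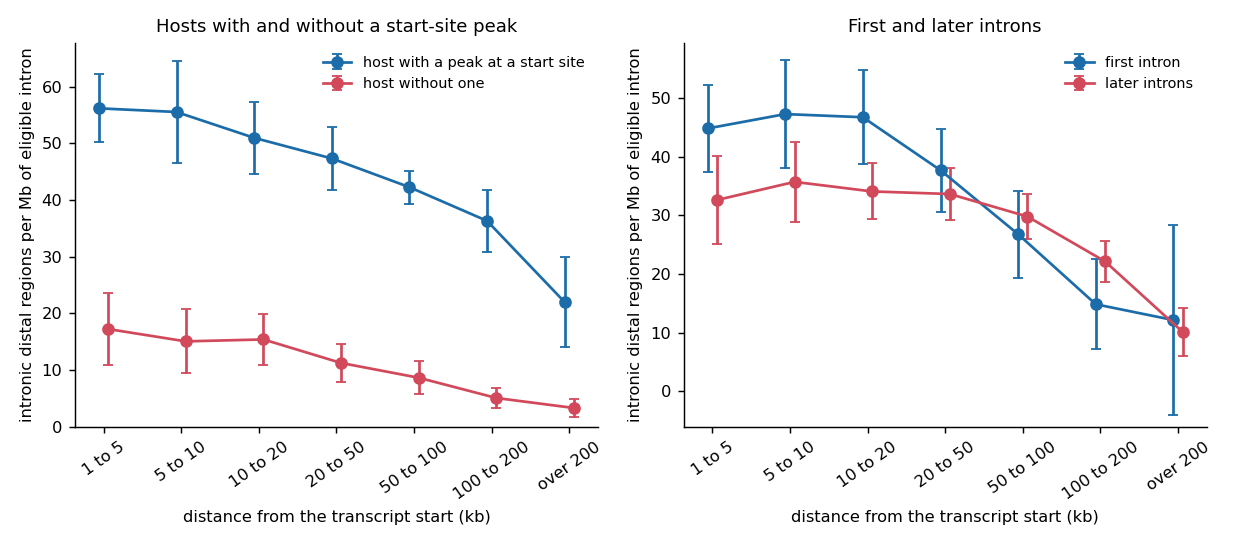
Members per Mb of eligible intron by distance from the transcript start, for hosts with and without a reference peak at a start site (left) and for first and later introns (right). Points are pooled values and bars the SD over 19 autosomes. Hosts with a start site peak fall from 56.2 to 22.0 per Mb and stay above hosts without it, whereas the lines for first and later introns, drawn for all hosts together, cross.

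The 2929 members in hosts without a start site peak were in genes without a counted peak at their own starts, although 36 genes had a peak there that was left out because it held a member's summit. Their median distance to the closest accessible coding gene start was 75406 bp, against 20419 bp for members in the other hosts, for 85.1% of which the closest was a start of the host itself. The grouping thus fixes the direction of this difference. When the genes without a start site peak were grouped by their distance to the closest accessible start of another gene, the density was 24.6 members per Mb where such a start lay inside the gene. It was 24.3 where the start was up to 10 kb away, 16.1 at 10 to 50 kb, 7.70 at 50 to 200 kb and 1.82 beyond 200 kb. The same grouping of genes with a start site peak gave 35.3, 44.3, 49.4, 41.3 and 31.2 per Mb. This grouping was chosen after the results were seen and is given without a test. The members without a start site peak in their host had a lower median score (664 against 727, 15 of 19 autosomes, exact adjusted p = 0.0288) and fewer summits each (1.17 against 1.32, 19 of 19, adjusted p = 2.29e-05). In regions of a single summit, also examined later, the medians were 628.5 and 654 (exact sign test, adjusted p = 0.0463). Members without a start site peak in their host more often carried a CTCF motif (5.39% against 3.15%, 17 of 19, exact adjusted p = 0.0138) and an NF-kB motif (6.56% against 5.32%, 16 of 19, adjusted p = 0.0420). PU.1/ETS was at 12.5% and 11.6%, with no difference in the same test (exact adjusted p = 1). These motif and feature comparisons were also added after the results were seen.

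The members were spread over 7110 host genes, of which 3150 (44.3%) had a single member. The 431 hosts with 10 or more members held 6716 members, or 29.7%. The gene with the highest count was Gm20388, with 102 members. Gm20388 is an annotated protein-coding model of 4.43 Mb on chromosome 8 (119910841 to 124345722) whose span covers many other genes, and all 102 lay in its first intron. No shorter coding gene contained these 102 summits. Among the other hosts, Pde4d, a cyclic AMP phosphodiesterase, had 57 members over 1459.9 kb of eligible intron, or 3.90 per 100 kb. Lpp, a LIM domain protein of cell adhesions, had 43, and Elmo1, an adaptor for phagocytosis and migration, had 40. Nav2 had 39, the ARF GTPase regulator Asap1 and the class IIa deacetylase Hdac9 37 each, Hivep3 35, the sphingomyelin synthase Sgms1 34 and the ETS family repressor Etv6 33, a count that Snx29 shared. The first 10 all had a start site peak, and their densities lay between 3.90 and 15.4 per 100 kb. Over all genes with eligible intron, the density was 2.73 per 100 kb. In those with a start site peak it was 4.26, which is above the value of Pde4d.

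Densities were ranked among hosts with 8 or more members, a limit that a short gene meets only at a high density. The densest was Pstpip1, a cytoskeletal adaptor of haematopoietic cells, with 9 members in 31.4 kb (28.7 per 100 kb). Map3k14 followed with 10 members (27.6 per 100 kb), then Rcsd1 (23.5), Gcnt1 (23.3) and Clic4 (23.3). The p38 effector kinase Mapkapk2 had 22.5, the bacterial peptidoglycan sensor Nod1 22.2, the stress-induced factor Atf3 22.1, Pacsin2 21.9 and Ahnak 21.7 per 100 kb. In Map3k14, Gcnt1, Atf3 and Pacsin2 most members lay in the first intron (8 of 10, 8 of 8, 8 of 9 and 15 of 16). Ahnak had 2 of 14 there. Over all members inside a representative transcript, the first intron share was 33.5%.

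**Figure D4:**
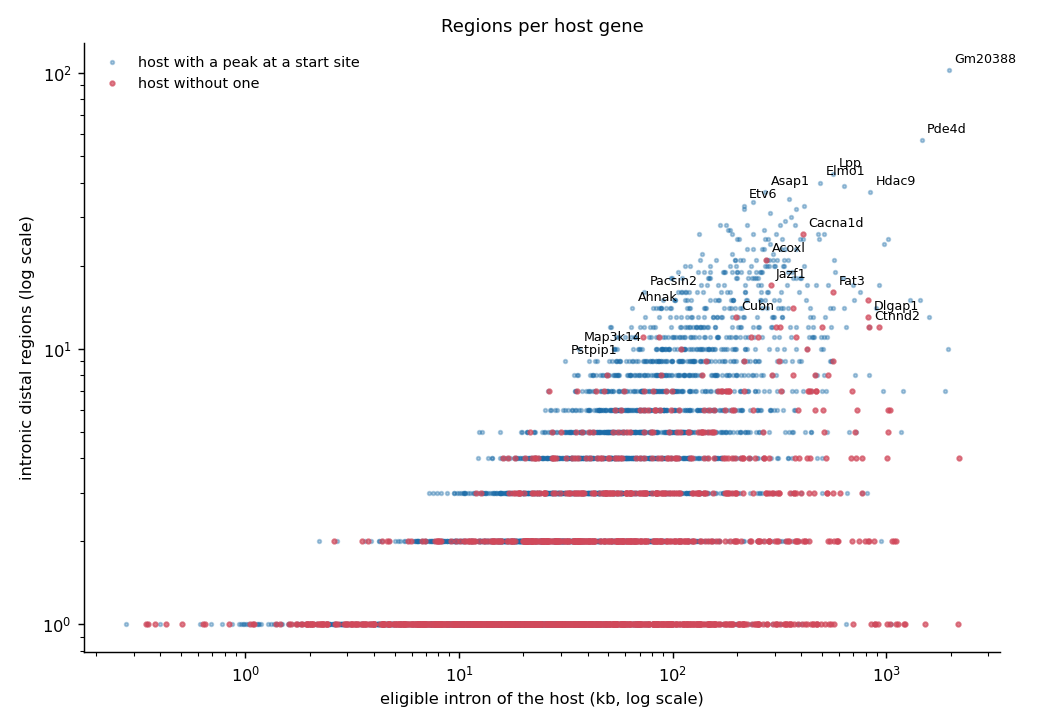
Members per host gene against the eligible intron of the host (both log scales), 1 point per host, with hosts lacking a start site peak in red. Gm20388 has 102 members in 1961 kb. Cacna1d has 26 and is the highest of the hosts without a start site peak.

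Among hosts without a start site peak, Cacna1d, a voltage-gated calcium channel of neurons and endocrine cells, had 26 members in 406 kb (6.40 per 100 kb), with scores from 211 to 1773 and a median of 791. For 15 of the 26, the closest accessible start of another gene was that of Dcp1a, an mRNA decapping factor. Acoxl had 21 members (7.68 per 100 kb), and for 12 of them the closest such gene was Bcl2l11, which encodes the apoptosis inducer BIM. Jazf1 had 17, of which 15 were closest to Tax1bp1, and the protocadherin Fat3 had 16, all closest to Slc36a4. The model Gm37240 had 15, and Hecw2 had 14, all closest to Stk17b. Cubn, an endocytic receptor of kidney and gut, had 13 with the highest median score of these hosts (1236). Dlgap1 had 13, all closest to Tgif1, the neuronal catenin Ctnnd2 had 12, all closest to Dap, and the GABA receptor subunit Gabbr2 had 12, as did Megf11, Nbea and Sox5. The distance was taken to the outermost start of each gene, the neighbours were named after their values were seen, and closeness alone does not assign a target.

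The gene lists come from general knowledge, were chosen with earlier results of these data known, and are described by counts, without a test. The 88 genes of the LPS, IL-4, macrophage identity and myeloid factor lists held 376 members in 51 genes. For macrophage identity, 17 of 20 genes with eligible intron were hosts, with 8.18 members per 100 kb and a median score of 917. For myeloid transcription factors it was 15 of 17 genes, 9.85 per 100 kb and a median score of 748. The LPS list had 12 of 23 genes (7.74 per 100 kb, median score 867) and the IL-4 list 7 of 21 (7.79 per 100 kb, median score 889). All coding genes with a start site peak had 4.26 per 100 kb and a median score of 727. Per gene with eligible intron, the median density (per 100 kb) was 7.53 for macrophage identity, 10.7 for myeloid factors, 4.13 for LPS and 0 for IL-4. It was 0.845 for all coding genes with a start site peak. Genes used by all cells had 2 of 11 hosts and 3.36 per 100 kb. The density was 1.27 for T cell markers (6 members), 0.799 for B cell markers (7), 3.12 for stromal markers (5) and 16.4 for granulocyte precursor markers. The last value was above every macrophage list but rests on 3 members in 18.2 kb. The other marker values also rest on few members, as does that of genes used by all cells (3 members). Genes of other tissues had 33 members in 21370 kb, or 0.154 per 100 kb, and 11 of the 33 lay in the glutamate transporter gene Slc1a2, which had a start site peak. The median eligible intron per gene differed widely, with 5.43 kb for genes used by all cells, 6.08 kb for the LPS list, 60.1 kb for macrophage identity and 1029 kb for genes of other tissues.

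Among LPS response genes, the NF-kB subunit gene Nfkb1 had 14 members in 83.6 kb (16.8 per 100 kb), with scores from 324 to 1531. It carried an NF-kB motif at 2 of them, in introns 6 and 1, with scores of 1518 and 1296. Rel, another subunit, had 4 members in 25.9 kb, and its highest summit (1606) carried an NF-kB motif in intron 3. The adaptor gene Traf1 had 3 in 10.6 kb, and Rasgef1b had 26 in 477 kb. Of the 26, only 1 lay inside the representative transcript of Rasgef1b, in its first intron. The others lay upstream of that transcript, at -1.9 to -326 kb from its start, within the longer annotated gene. Il1b, Il6, Tnf, Ptgs2 and Nfkbia, which encode cytokines, cyclooxygenase 2 and an NF-kB inhibitor, had 0, with 0.392 to 3.57 kb of eligible intron each. The NF-kB motif was present at 7 of the 57 LPS list members (12.3%, 95% Wilson interval 6.08 to 23.2), against 5.48% of all members, and 4 of the 7 lay in Rasgef1b. The STAT6 motif was present at 8 of the 57 (14.0%, 95% Wilson interval 7.29 to 25.3), against 7.86% of all members, and 5 of the 8 lay in Rasgef1b. By raw count, NF-kB was not the more frequent of the pair in this list. Members of a gene are not independent.

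In the IL-4 list, the mannose receptor gene Mrc1 had the most members, 11 in 91.9 kb, with scores from 505 to 1129 and a median of 889. The STAT6 motif was present at 7 of these 11. They lay 2.2, 15.4, 22.8, 33, 42.9, 46.6 and 94 kb from the transcript start, with scores of 1059, 1129, 505, 856, 664, 889 and 889. The gene for the vascular growth factor receptor Flt1 had 9 members, the checkpoint ligand gene Pdcd1lg2 had 6, and the nuclear receptor gene Pparg had 5. The Pparg members at -46.5 and -41.2 kb lay upstream of its representative transcript. Il4ra, the receptor chain that binds IL-4, had 4, the best of which (score 1903) carried a PU.1/ETS motif 3.5 kb from the start. Irf4 and Clec10a had 0 in 11.98 and 8.43 kb of eligible intron. The STAT6 motif was present at 13 of the 41 members of this list (31.7%, 95% Wilson interval 19.6 to 47.0), against 7.86% of all members. It was at 11.5% in the macrophage identity list and 10.8% in the myeloid factor list, also above the share of all members, while NF-kB was at 2 of 41 in the IL-4 list. Mrc1 held 7 of these 13, and members of a gene are not independent.

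Of the macrophage identity genes, Elmo1 had 40 members and Lyn 20, the latter at 16.6 per 100 kb with 11 in the first intron. The guanine nucleotide exchange factor gene Dock2 had 13, and the fractalkine receptor gene Cx3cr1 11 (16.5 per 100 kb). Itgam, the integrin chain CD11b, had 3, with scores of 1164, 889 and 1176. Each carried a PU.1/ETS motif, against 11.7% of all members and 15.5% of this list. Lyn had this motif at 2 of 20 members and Csf1r at 0 of 4, and members of a gene are not independent. Fcgr1, a high affinity receptor for antibodies, had 3 in 7.52 kb of eligible intron, with scores of 911, 644 and 189. Csf1r, the receptor for the growth factor on which macrophages depend, had 4, with a highest score of 2193. Cd68, Lyz2 and Tyrobp had 0 in at most 2.89 kb.

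Among the myeloid transcription factors, Mitf had 25 members. Of these, 19 lay in the first intron, against 33.5% of all members inside a representative transcript. A C/EBP motif was at 10 of the 25, against 12.7% of all members. Tcf4 had 21, and Runx1 had 19, with 0 in the first intron and scores from 349 to 1864. A RUNX motif was present at 1 of the 19 Runx1 regions, against 9.55% of all members. Zeb2 had 16, Fli1 11, Mef2c 10 and Ikzf1 9. Spi1, which encodes PU.1 itself, had 3 with scores of 1683, 945 and 1117, and 0 of the 3 carried the PU.1/ETS motif, against 11.7% of all members. The best scored of the 3 lay upstream of the representative transcript, at -9.6 kb. Counts this small do not set Runx1 or Spi1 apart. Nfe2l2 had 5, all in the first intron (22.3 per 100 kb). Maf had 0 in 16.6 kb.

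The orientation of motifs against the host gene was examined in members with a single host, for the 13 motifs that are not palindromes. RUNX sites were on the sense strand only in 1275 members and on the antisense strand only in 771, a sense share of 62.3% (95% Wilson interval 60.2 to 64.4; exact binomial test, adjusted p = 6.86e-28). IRF and PU.1-IRF composite sites leaned to the antisense strand, with sense shares of 42.4% (exact adjusted p = 4.02e-05) and 42.9% (adjusted p = 4.85e-06). PU.1/ETS was at 52.6% (exact adjusted p = 0.0306), at 52.4% with 50 bp to each side of the summit, where it did not pass the test (adjusted p = 0.146), and at 56.4% in first introns (adjusted p = 0.0022). In flank windows RUNX was at 62.0% sense (exact adjusted p = 1.24e-13), IRF at 45.4% (adjusted p = 0.231) and the composite at 45.6% (adjusted p = 0.510). None of the 13 motifs differed in sense share between summits and flanks (exact sign test over autosomes, adjusted p = 1 throughout). The sense strand of the host held more T than A in both kinds of window, by 2.83 points at summits and 2.99 points in flanks, and on 19 of 19 autosomes. CTCF, at 47.5% sense, showed no preference (exact adjusted p = 0.274).

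**Figure D5:**
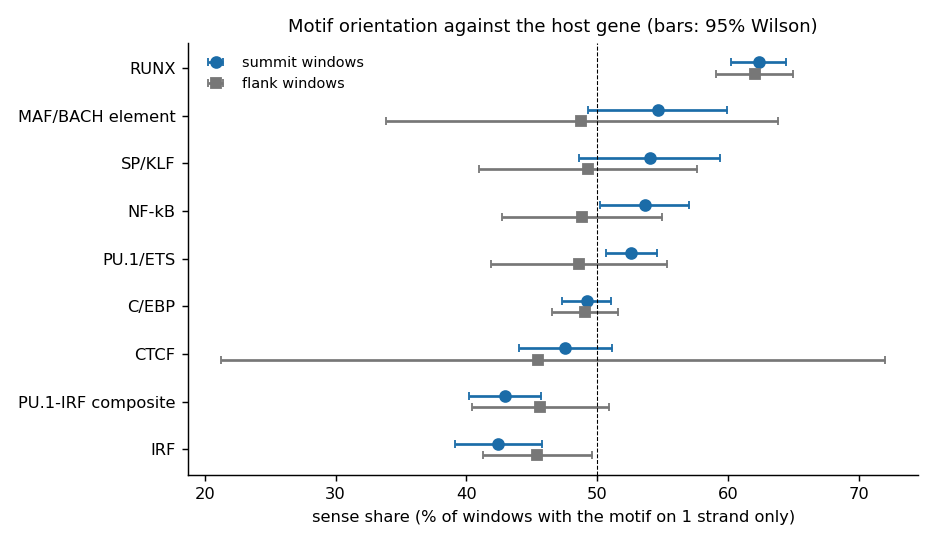
Sense share of 9 motifs at intronic summits and in the flanks 1000 bp downstream, with 95% Wilson intervals and a dashed line at equal shares. RUNX lies at 62.3% and 62.0%, and the intervals of summits and flanks overlap for every motif shown.

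The members with extreme values differed in kind. The highest score, 2781, belonged to a summit in the model Gm10722 on chromosome 9, at 3002158, in a region of 10 summits whose window was 100% repeat-masked. The next, 2552, was in Fhad1 with 84.6% of the window masked. Neither carried any of the 19 motifs. The following 3 were in Itpkb (2349, a CRE motif), Zeb2 (2310, AP-1) and Abr (2310, AP-1 and C/EBP), with 0 to 7.96% of the window masked. The widest reference peak, 1278 bp in Cx3cr1, had 5 summits and a best score of only 476. The next was Gm49339 (1164 bp, score 458), whereas Vav1, a signalling factor of blood cells (1003 bp), Rab20 (940 bp) and Gse1 (885 bp) scored from 1942 to 2245. The 5 members farthest from their transcript start were all in Gm20388, up to 4319230 bp away. Without it, a region in Cntnap2 at 2115072 bp was the farthest (score 613), followed by 4 in Magi2, a scaffold protein, at 1385721 to 1454281 bp. All 4 Magi2 regions carried an AP-1 motif, against 20.5% of all members and 21.5% of those over 200 kb from the start. They lie in 1 gene and are not independent. At the edge of the rule, 200 members lay at most 100 bp beyond the limit of 1000 bp from a start, and 215 intronic summits lay at most 100 bp inside it.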

How the data were processed

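ATAC-seq libraries of 18 BMDM samples were processed by the authors. Adapters were removed with BBDuk, reads trimmed (Trimmomatic 0.39) and aligned to mm10 (ShortStack), low quality and mitochondrial reads removed (SAMtools 1.9) and peaks called with all duplicates kept (MACS2 2.2.6). No shift of reads towards the Tn5 cut is named. Peaks shared by replicates were merged over all libraries. The 3 deposited BED lists hold positions (of reference peaks, extended regions and summits) and, for summits, a score deposited by the authors on a scale that is not stated. There is no column per library (0 columns of other samples), so no depth, replicate error or stimulus comparison could be had.

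Coordinates are mm10, counted from 1. Genes are from GENCODE M21 and sequence from GRCm38.p6. The host is the shortest protein-coding gene around the summit, and its representative transcript the longest coding one of the best APPRIS class. Motif consensus sequences were matched without mismatch on both strands. A motif that passed the test has an adjusted p below 0.05. Flanks were left out where they overlapped a reference peak or an exon, left coding genes or held a start. Named hosts are the 10 with the most members, the 10 densest with 8 or more members, the 10 with the most members but no start site peak, and genes of the 10 lists (161 genes), with ties in the last place broken by symbol; named members are the 5 most extreme by score, width and distance. Of the 19 motifs and the list genes, 1 motif and 1 gene are counted in totals but not reported here. Members, motifs and lists were chosen with earlier results of these data known. Analyses used Python 3.11.15, numpy 2.4.6, pandas 2.3.3 and scipy 1.17.1, and the scan and tests were tested on simulated data.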

Additional observations from a re-analysis of the deposited data

How the results depend on the processing

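No paired analysis was possible because the deposited lists are pooled over all libraries and carry no replicate number, and no library could be left out for the same reason. The number of intronic distal regions fell to 11115 when summits at or above the median score of 737 were required, and stayed within 1.5 times of the reported number under the other distances, exon rules and summit choices. The number of motifs less frequent at intronic than at intergenic summits was 2 as reported, 1 with 50 bp to each side, 1 over 2500 bp from every start, and 0 with summits at or above the median score, where CTCF kept its direction (exact adjusted p = 0.0841). The STAT6 difference from intergenic summits changed sign, to 0.126 points with 50 bp to each side and 0.111 points over 2500 bp from every start, and passed no test in either form. In regions of a single summit, the median score of intronic regions was higher by 10, which passed the test (exact adjusted p = 0.0425). The ratio of first to later introns changed direction far from the start, to 0.899 at 50 to 100 kb and 0.670 at 100 to 200 kb; over 200 kb it was 1.20 pooled, although most autosomes were lower, and 0.438 without Gm20388. Among hosts with a start site peak the pooled ratio was 1.25, 1.08 and 1.51 in these bins, and 0.648 over 200 kb without Gm20388, none of which passed the test. The cause of the other changes was not tested. The density ratio between hosts with and without a start site peak ranged from 3.26 to 7.16 over the alternatives. Without Gm20388, left out after the data were seen, the calls for motifs against flanks, motifs and features against intergenic regions and both densities over all distances did not change. NF-kB (200 bp to each side) and C/EBP (unmasked summits) gained a difference from intergenic summits. Depth is unknown, so a region missing from the catalog is not shown to be closed.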
